A study of Mus musculus with 8 samples.

Results

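Expression of 35 genes that mark mesoderm, endoderm and extraembryonic lineages was examined in mouse ES cells on Day 4 in N2B27, a medium without serum that turns ES cells into neural progenitors (NP). The genes were chosen by symbol from the annotation of the array, with earlier results of these data known. Of the 35, 34 had a single row each among the 19938 genes with a row of their own. *T* (brachyury), the T-box factor of the primitive streak, is not analysed here. *Sox3* null cells, in which a GFP reporter is knocked into the *Sox3* locus, and control cells that carry a conditional *Sox3* allele (labelled Sox3 positive) are both lines of R1 ES cells. How many clones stand behind either line is not stated in the labels or methods, so line and genotype cannot be told apart. Before differentiation the cells were kept on gelatine per the labels and on irradiated embryonic fibroblasts per the methods. Each genotype gave 4 cultures, replicates 1 and 2 in one differentiation series (batch 1) and replicates 3 and 4 in another (batch 2), with an Affymetrix Mouse Gene 1.0 ST array for each culture.

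The values are log2 signals of transcript clusters, in which the probes along a transcript are summarised to a single number. The lower quartile over all rows ran from 5.48 to 5.57 across the 8 arrays and the median from 7.02 to 7.18. *Sox3* itself had log2 signals of 9.92, 9.84, 9.73 and 9.76 in control replicates 1 to 4 and 8.39, 8.56, 8.67 and 8.37 in *Sox3* null replicates 1 to 4. All 4 null arrays lay below all 4 control arrays, and the log2 fold change was -1.31 (standard error, SE, 0.08, with 3.87e-05 as adjusted p from limma), so the genotype labels held on every array. The paper, in its results, names the samples biological replicates. How the cultures of a batch were kept apart is not described. With genotype and batch in the fit, the p-values measure the spread between these 8 cultures that the 2 factors leave. The difference in level between the 2 differentiation series is taken out of it.

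Mesoderm and definitive endoderm arise from epiblast cells that pass through the primitive streak under Nodal and Wnt signals, while the epiblast cells that stay outside the streak can form the neural plate. Primitive and visceral endoderm and trophoblast separate earlier, in the blastocyst, and form the yolk sac and placenta. Their transcripts are a usual check of neural cultures for cells of other fates. T-box, forkhead, GATA, SoxF and bHLH factors set up the lineages, and receptors and secreted proteins mark their products. In a culture profiled in bulk, fewer cells of a type and less RNA per cell cannot be told apart.

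Promoters from RefSeq on GRCm38.p6 were matched by symbol for 25 of the 35 genes. Exact matches on either strand were counted from 250 bases before to 50 bases after each start, for a SOX core (AACAAT), a T-box core (TCACACCT) and a GATA core (AGATAA). The SOX core lay in 10.7% of all 32851 promoters of the table and, among 31 promoters of the lineage genes, in 1, that of *Tek*. The T-box core lay in 1.28% of all promoters and in 1 of the 31, that of *Mesp1*. The GATA core was in 11.2% of all promoters and in 5 of the 31, those of *Foxa2*, *Hand2*, *Hnf4a*, *Tal1* and *Tek*. None of the 3 spellings contains another, though AGATAA and AACAAT can share end bases, and a match is a description of the sequence. CpG pairs are another feature in which these promoters vary: the 250 bases before the start held a median of 8 in the lineage genes and of 6 over the whole table. The upstream 250 bases of the genes on which the results below turn, 4 of those lower in batch 2 and the gene that rose in *Sox3* null cells, are printed 5′ to 3′ on the strand of the gene with each CpG in capitals. *Gata3* (chr2:9878601-9878850, minus strand) has 19 CpG, *Kdr* (chr5:75978456-75978705, minus strand) 16, *Cdx2* (chr5:147307250-147307499, minus strand) 13, *Eomes* (chr9:118477939-118478188, plus strand) 8 and *Prrx1* (chr1:163313651-163313900, minus strand) 4.
Gata3: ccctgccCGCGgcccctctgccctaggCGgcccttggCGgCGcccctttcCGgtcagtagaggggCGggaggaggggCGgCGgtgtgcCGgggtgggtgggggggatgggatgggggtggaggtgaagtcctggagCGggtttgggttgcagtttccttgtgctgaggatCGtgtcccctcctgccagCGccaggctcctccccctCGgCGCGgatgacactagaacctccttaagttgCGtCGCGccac
Kdr: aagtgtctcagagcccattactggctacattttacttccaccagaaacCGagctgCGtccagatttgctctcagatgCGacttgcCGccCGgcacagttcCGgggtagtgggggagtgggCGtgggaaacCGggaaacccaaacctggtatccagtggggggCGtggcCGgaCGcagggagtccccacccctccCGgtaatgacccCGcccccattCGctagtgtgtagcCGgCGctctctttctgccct
Cdx2: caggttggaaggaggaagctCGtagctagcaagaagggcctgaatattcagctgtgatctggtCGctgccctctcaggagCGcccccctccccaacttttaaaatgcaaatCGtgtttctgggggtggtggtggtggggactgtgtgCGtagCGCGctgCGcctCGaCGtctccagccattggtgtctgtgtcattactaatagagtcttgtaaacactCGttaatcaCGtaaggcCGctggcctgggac
Eomes: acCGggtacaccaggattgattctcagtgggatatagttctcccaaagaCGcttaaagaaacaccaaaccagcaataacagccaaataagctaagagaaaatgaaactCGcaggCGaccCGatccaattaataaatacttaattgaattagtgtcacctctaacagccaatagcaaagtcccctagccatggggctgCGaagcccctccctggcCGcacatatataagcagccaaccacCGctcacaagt
Prrx1: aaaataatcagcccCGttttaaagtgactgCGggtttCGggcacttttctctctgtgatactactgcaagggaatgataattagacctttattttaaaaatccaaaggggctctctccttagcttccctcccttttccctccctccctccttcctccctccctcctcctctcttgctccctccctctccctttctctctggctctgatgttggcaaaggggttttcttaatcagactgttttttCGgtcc

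The log2 signals of the lineage genes ran from 5.37 to 8.59, and 32 of the 34 were above the lower quartile of the array on all 8 arrays, compared with 18173 of 23410 rows with a gene symbol. The exceptions were *Ttr*, which encodes the thyroid hormone carrier of visceral endoderm, above it on 1 array, and *Elf5*, an ETS factor of trophoblast stem cells, above it on 6. Only 8 of the 34 were above the median of the array on all 8 arrays (12677 of all rows), and 14 were never above it (9512 of all rows). The 8 were *Msgn1*, *Nkx2-5*, *Tal1*, *Gata2*, *Gata3*, *Gata4*, *Gata6* and *Foxa2*. The lower quartile is no detection call, and a row above it is not thereby shown to be expressed. In the same cultures all 10 neural progenitor markers and all 10 markers of undifferentiated ES cells examined here were above the median on all 8 arrays. How bright a transcript cluster is depends on its probes, so these counts give places on the array, and the level of one gene is not set against that of another.

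**Figure D1:**
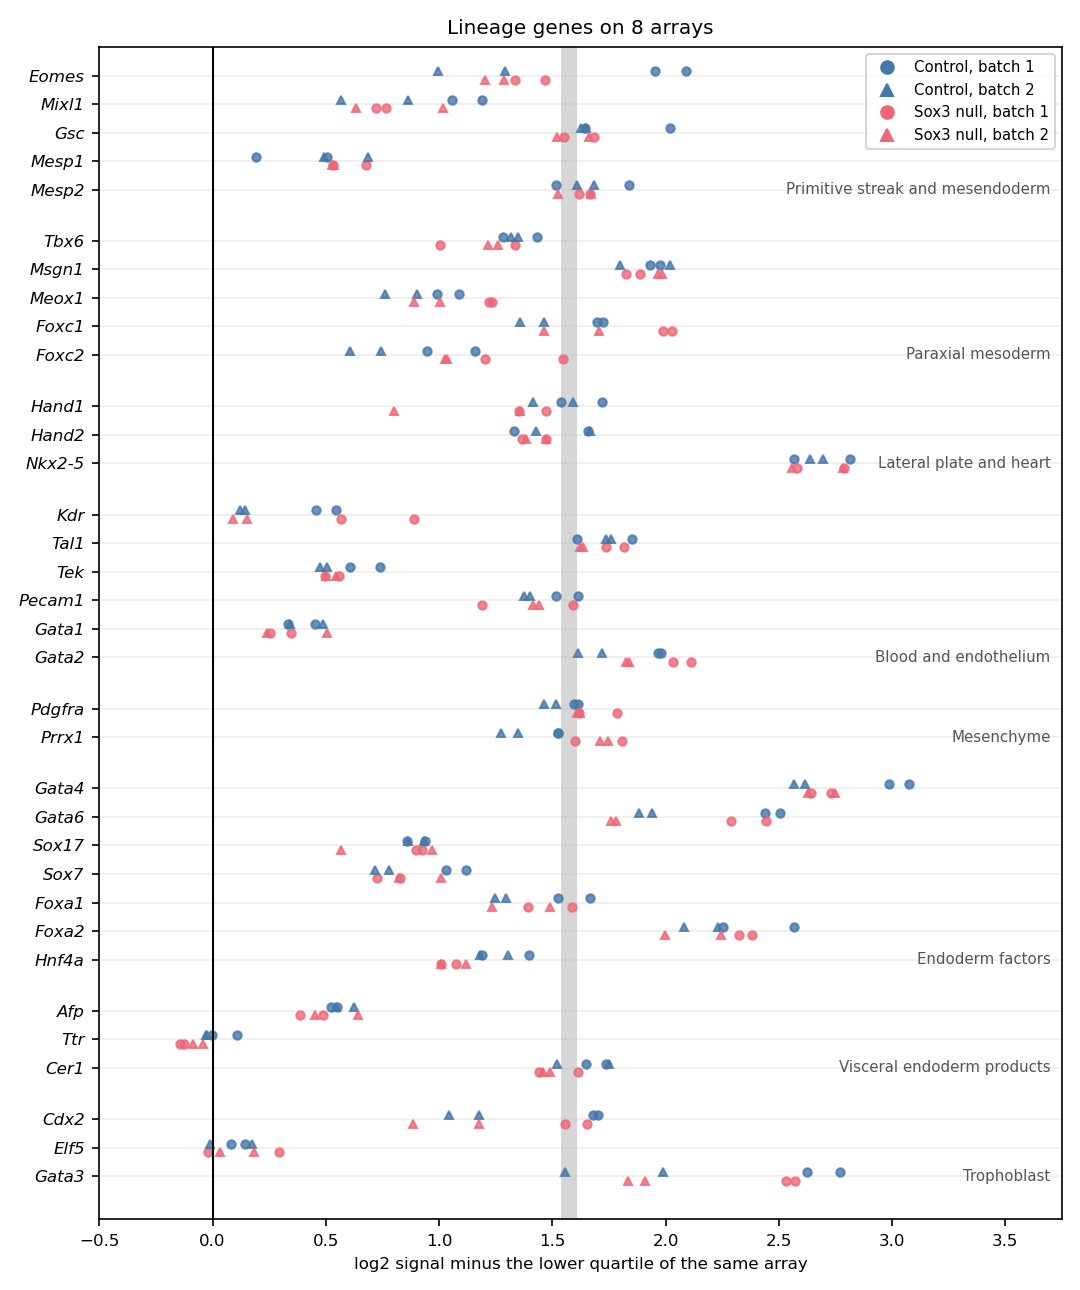
Log2 signal of each lineage gene minus the lower quartile of the same array (horizontal axis), by role, with 1 point per array, blue for control and red for *Sox3* null, circles for batch 1 and triangles for batch 2. The black line is the lower quartile and the grey band covers the medians of the 8 arrays, and *Gata3*, *Gata6*, *Cdx2* and *Kdr* have their triangles to the left of their circles.

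No lineage gene passed the genotype test by 1.4-fold or more. The count was 0 of 34 with limma at the 0.05 threshold on adjusted p, where 101 of 23410 rows (0.431%) passed. At any fold, 1 of 34 passed, *Prrx1*, which was higher in *Sox3* null cells, beside 1.55% of all rows in either direction and 1.15% in that direction. At an unadjusted p of 0.05 or less there were 10 of 34, 6 higher and 4 lower in *Sox3* null cells, beside 13.1% of all rows. The log2 fold changes ran from -0.32 for *Hand1* to 0.33 for *Foxc2* with a median of -0.06, and 25 of the 34 were below 0. Over all rows the median was 0.00 and 11716 of 23410 were below 0. Dim rows leaned the same way. For rows with a mean signal between the lower quartile and the median, the median log2 fold change was -0.041, and -0.072 for the 19 lineage genes there. For rows above the median signal it was 0.017, and -0.036 for the 14 lineage genes there. The median of the lineage genes ran from -0.02 without control replicate 1 to -0.09 without *Sox3* null replicate 3 when single arrays were left out. For 31 of the 34 genes the 95% interval lay within 1.4-fold in both directions, as it did for 22971 of all rows. The exceptions were *Eomes*, *Hand1* and *Foxc2*. The null pair lay wholly on one side of the control pair in each batch for 8 of 34, beside 12.1% of all rows. These were *Prrx1*, *Foxc2*, *Gata2* and *Pdgfra*, higher in *Sox3* null cells, and *Hand1*, *Hnf4a*, *Cer1* and *Ttr*, lower.

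**Figure D2:**
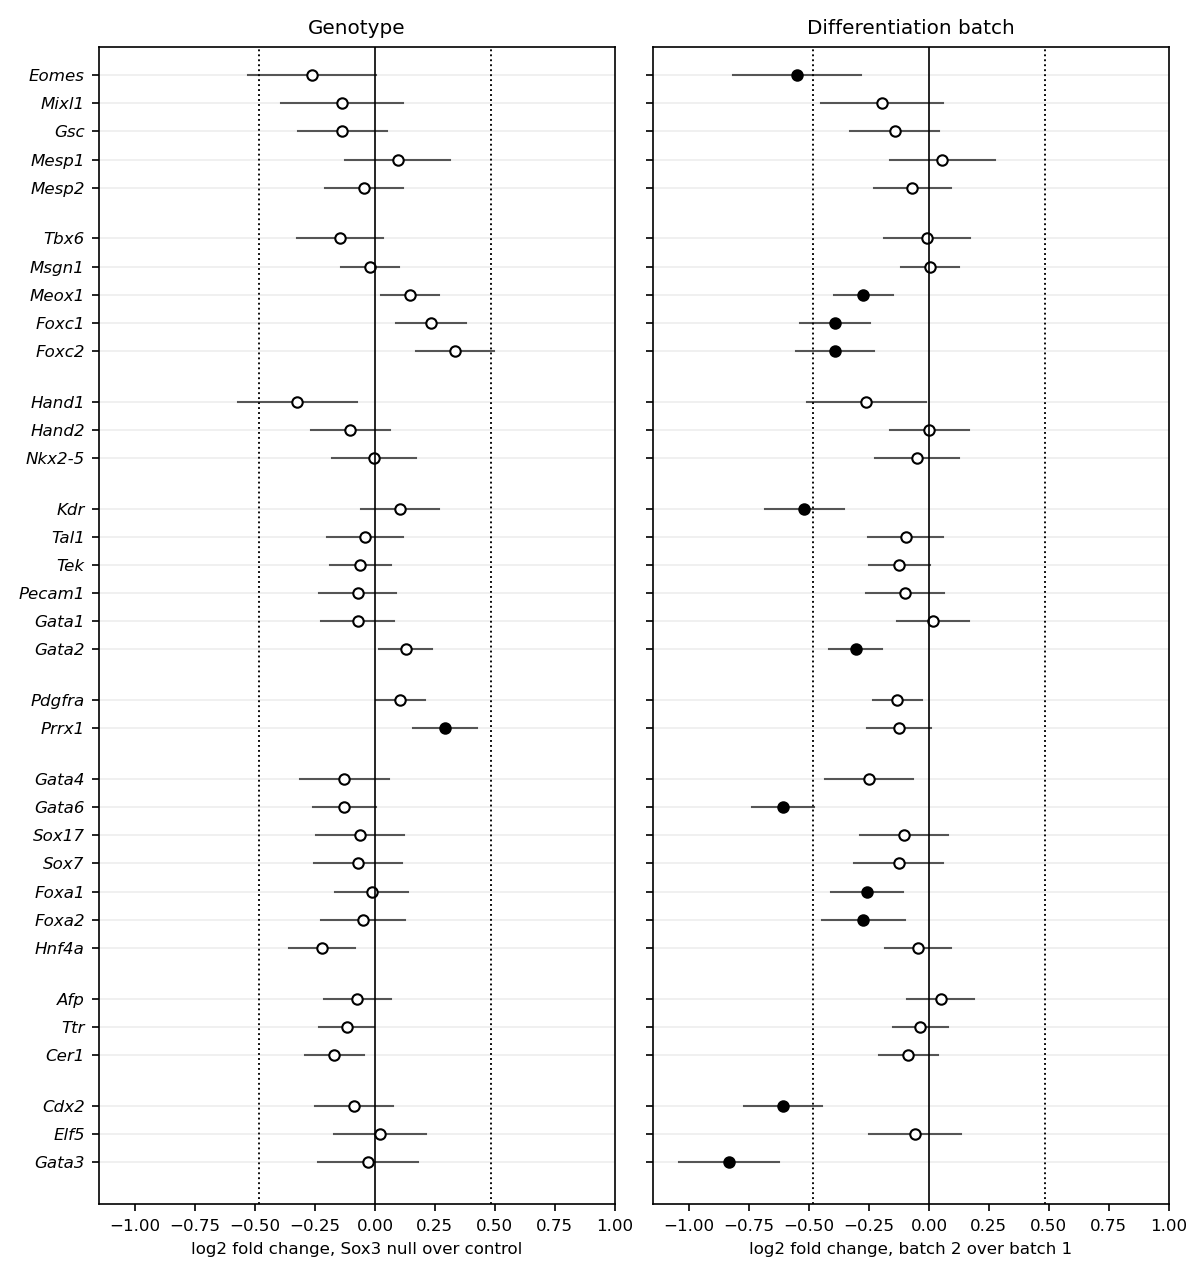
Log2 fold change of each lineage gene for genotype (left, *Sox3* null over control) and for differentiation batch (right, batch 2 over batch 1), with 95% intervals from limma over 8 arrays. Filled circles have an adjusted p of 0.05 or less and dotted lines mark 1.4-fold, and 1 gene is filled on the left and 11 on the right, all 11 below 0.

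Of the 2 mesenchymal genes, *Prrx1*, a paired-related homeobox factor of limb and facial mesenchyme, rose. Its log2 signals were 7.04, 7.04, 6.76 and 6.88 in control replicates 1 to 4 and 7.30, 7.17, 7.19 and 7.23 in *Sox3* null replicates 1 to 4. All 4 null arrays were above all 4 control arrays. The log2 fold change was 0.29 (95% interval 0.16 to 0.43, adjusted p = 0.0397 from limma), which is 1.23-fold. In the 8 fits that left out 1 array it ran from 0.25 to 0.34, and the adjusted p was above 0.05 in 7 of them, all but that without *Sox3* null replicate 2. With the replicate number as a block in place of batch the adjusted p was 0.0633, and over all alternatives it ran from 0.0256 with rows below the median left out to 0.517 in batch 1 alone. *Pdgfra*, the PDGF receptor alpha of mesoderm and mesenchyme, had log2 signals of 7.13, 7.11, 7.000 and 6.998 in control cells and 7.28, 7.19, 7.10 and 7.09 in *Sox3* null cells. The null arrays were the higher pair in each batch, but batch 1 controls were brighter than batch 2 null arrays, and the log2 fold change of 0.10 did not pass (adjusted p = 0.365).

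Of 5 paraxial mesoderm genes none passed, and 3 were higher at an unadjusted p of 0.05 or less, as were 7.31% of all rows. *Foxc2*, a forkhead factor of somites and head mesenchyme, had log2 signals of 6.67, 6.47, 6.09 and 6.28 in control cells and 7.04, 6.78, 6.51 and 6.52 in *Sox3* null cells. Its log2 fold change of 0.33 (SE 0.07) was the largest among the 34 genes and missed the threshold (adjusted p = 0.0547). Of 21 alternatives, 4 brought it under 0.05, with the lowest adjusted p from the replicate block (0.022) and one of 0.0417 without *Sox3* null replicate 2. *Foxc1*, its close relative, had 7.24, 7.21, 6.94 and 6.89 in control and 7.48, 7.60, 6.94 and 7.19 in *Sox3* null cells, a log2 fold change of 0.23 (adjusted p = 0.141). The lowest null array of batch 2 was level with a control array of that batch for *Foxc1*, and without that array, *Sox3* null replicate 3, the adjusted p was 0.0361. *Meox1*, a homeobox factor of the somite, had 6.60, 6.51, 6.39 and 6.30 in control cells and 6.73, 6.79, 6.37 and 6.49 in *Sox3* null cells, a log2 fold change of 0.15 (adjusted p = 0.282), with overlap in batch 2. The presomitic factors *Tbx6* and *Msgn1* had log2 fold changes of -0.15 and -0.02.

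Of 5 genes of the primitive streak and mesendoderm none passed, and 4 had log2 fold changes below 0. *Eomes*, a T-box factor needed for mesendoderm and trophoblast, had log2 signals of 7.47, 7.61, 6.77 and 6.53 in control replicates 1 to 4 and 6.96, 6.91, 6.68 and 6.77 in *Sox3* null replicates 1 to 4. The 2 control arrays of batch 1 stood above the other 6 arrays. Its log2 fold change was -0.26 (95% interval -0.53 to 0.00, adjusted p = 0.388). *Mixl1*, a homeobox factor of the streak, had -0.14, *Gsc*, the organizer homeobox factor goosecoid, had -0.14, and the bHLH factors of nascent mesoderm *Mesp1* and *Mesp2* had 0.10 and -0.05. *Mesp1* was the single streak gene above 0.

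Of 3 lateral plate and heart genes none passed, and all 3 were below 0. *Hand1*, a bHLH factor of lateral plate, heart and trophoblast giant cells, had log2 signals of 7.24, 7.06, 7.07 and 6.95 in control cells and 6.85, 7.05, 6.84 and 6.28 in *Sox3* null cells. *Sox3* null replicate 4 was the lowest array, and without it the log2 fold change of -0.32 (adjusted p = 0.236) was -0.19. *Hand2*, which acts in heart and limb, had -0.10, and the cardiac homeobox factor *Nkx2-5* had -0.0047.

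Of 6 blood and endothelial genes none passed. *Gata2*, a zinc finger factor of blood progenitors, had log2 signals of 7.48, 7.50, 7.10 and 7.25 in control cells and 7.61, 7.61, 7.30 and 7.32 in *Sox3* null cells. The null arrays were the higher pair in each batch, and the log2 fold change was 0.13 (adjusted p = 0.300). *Kdr*, which encodes the VEGF receptor of early endothelium, had 5.97, 6.06, 5.62 and 5.66 in control and 6.38, 6.14, 5.63 and 5.57 in *Sox3* null cells, and in batch 1 its null pair was the higher. Its log2 fold change was 0.10 (adjusted p = 0.620), and -0.04 in batch 2 alone. The blood factors *Tal1* and *Gata1*, the angiopoietin receptor gene *Tek* and the endothelial adhesion gene *Pecam1* had log2 fold changes from -0.07 to -0.04.

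All 7 endoderm factors had log2 fold changes below 0 and none passed. *Hnf4a*, the nuclear receptor of visceral endoderm and liver, had log2 signals of 6.91, 6.71, 6.79 and 6.71 in control cells and 6.50, 6.65, 6.60 and 6.49 in *Sox3* null cells. All 4 null arrays were below all 4 control arrays, and the log2 fold change was -0.22 (95% interval -0.36 to -0.08, adjusted p = 0.135). *Gata4*, a zinc finger factor of primitive endoderm and heart, had 8.501, 8.59, 8.05 and 8.15 in control and 8.14, 8.31, 8.11 and 8.23 in *Sox3* null cells, a log2 fold change of -0.13 (adjusted p = 0.583). *Gata6*, its partner in primitive endoderm, had 8.02, 7.96, 7.42 and 7.42 in control cells and 7.78, 8.02, 7.24 and 7.26 in *Sox3* null cells, a log2 fold change of -0.13 (adjusted p = 0.389). *Sox17*, the SoxF factor of definitive endoderm, had 6.45, 6.37, 6.41 and 6.40 in control and 6.39, 6.50, 6.45 and 6.05 in *Sox3* null cells. The arrays of the 2 genotypes overlapped for *Sox17*, and its log2 fold change was -0.06, or 0.03 in batch 1 alone and 0.04 without *Sox3* null replicate 4, the lowest array. *Foxa2*, a forkhead factor of endoderm and also of the floor plate of the neural tube, had 8.08, 7.77, 7.71 and 7.62 in control and 7.82, 7.96, 7.72 and 7.48 in *Sox3* null cells, again overlapping, with a log2 fold change of -0.05. *Sox7*, a SoxF factor of primitive endoderm, and *Foxa1* had -0.07 and -0.01.

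Of 3 products of visceral endoderm none passed, and 2 were lower at an unadjusted p of 0.05 or less, as were 5.8% of all rows. *Cer1*, a secreted inhibitor of Nodal, BMP and Wnt from anterior visceral endoderm, had log2 signals of 7.25, 7.17, 7.23 and 7.06 in control cells and 7.11, 7.01, 6.94 and 6.97 in *Sox3* null cells. The null arrays were the lower pair in each batch, and the log2 fold change was -0.17 (adjusted p = 0.211). *Ttr* had 5.62, 5.51, 5.46 and 5.51 in control and 5.37, 5.43, 5.39 and 5.44 in *Sox3* null cells, a log2 fold change of -0.12 (adjusted p = 0.358) in signals at or below the lower quartile on 7 of 8 arrays. *Afp*, which encodes the serum carrier alpha-fetoprotein, had 6.04, 6.07, 6.03 and 6.16 in control and 5.88, 6.06, 6.12 and 5.93 in *Sox3* null cells, with overlap in both batches and a log2 fold change of -0.07. Of 3 trophoblast genes none passed, and the log2 fold changes were -0.09 for *Cdx2*, the homeobox factor of trophectoderm, -0.03 for *Gata3*, a zinc finger factor of trophoblast, and 0.02 for *Elf5*.

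More lineage genes passed the test for differentiation batch than the test for genotype. Of the 34 genes, 5 were lower in batch 2 past the 0.05 threshold by 1.4-fold or more, and 0 were higher, where 1.47% and 1.03% of all rows were. At any fold 11 were lower and 0 higher, beside 9.35% and 10.9% of all rows. The median log2 fold change, batch 2 over batch 1, was -0.13 for the lineage genes and 0.00 over all rows, and 29 of the 34 were below 0. When the arrays were quantile normalized again the medians were -0.05 and 0.03. For 10 of the 34 genes all 4 arrays of batch 2 lay below all 4 of batch 1, beside 9.34% of all rows. Calls were rarer among dim rows: 8.19% of the 5447 rows between the lower quartile and the median passed at any fold, either direction, and 6 of the 19 lineage genes there did, all lower in batch 2. Of the 13285 rows above the median 31.9% passed, and 5 of 14 lineage genes did.

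The 5 genes came from 4 roles. *Gata3* had log2 signals of 8.29, 8.14, 8.07 and 8.11 in batch 1 (control replicates 1 and 2, then *Sox3* null replicates 1 and 2) and 7.04, 7.52, 7.31 and 7.39 in batch 2 (control replicates 3 and 4, then *Sox3* null replicates 3 and 4). It fell by 0.83 on the log2 scale from batch 1 to batch 2 (SE 0.09, adjusted p = 2.49e-04 from limma), the most of the 34. *Cdx2* had 7.19, 7.22, 7.05 and 7.23 in batch 1 and 6.53, 6.71, 6.65 and 6.37 in batch 2, and fell by 0.61 (SE 0.07, adjusted p = 3.43e-04). *Gata6* had 8.02, 7.96, 7.78 and 8.02 in batch 1 and 7.42, 7.42, 7.24 and 7.26 in batch 2, and fell by 0.61 (SE 0.06, adjusted p = 1.15e-04). For these 3 genes no array of batch 2 reached the lowest array of batch 1, and every fit that left out an array kept them past the threshold.

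*Kdr* had log2 signals of 5.97, 6.06, 6.38 and 6.14 in batch 1 and 5.62, 5.66, 5.63 and 5.57 in batch 2, and fell by 0.52 (SE 0.07, adjusted p = 8.46e-04). The batches did not overlap, but the fold dropped under 1.4 without *Sox3* null replicate 1 (-0.44) and without *Sox3* null replicate 4 (-0.48), and was -0.38 on control arrays alone. *Eomes* had 7.47, 7.61, 6.96 and 6.91 in batch 1 and 6.77, 6.53, 6.68 and 6.77 in batch 2, and fell by 0.55 (SE 0.12, adjusted p = 0.00897). Its fold dropped under 1.4 without control replicate 2 (-0.45) and without control replicate 4 (-0.43), and on *Sox3* null arrays alone the log2 fold change was -0.21 (adjusted p = 0.202). With the plain linear model its adjusted p was 0.104, and after renewed quantile normalization it stood at -0.48 and *Kdr* at -0.47, both under 1.4-fold. The other 6 that passed below 1.4-fold were *Foxc1* (-0.39), *Foxc2* (-0.39), *Gata2* (-0.31), *Meox1* (-0.27), *Foxa2* (-0.27) and *Foxa1* (-0.26). None of the 3 lateral plate genes, 3 visceral endoderm products or 2 mesenchymal genes passed for batch.

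**Figure D3:**
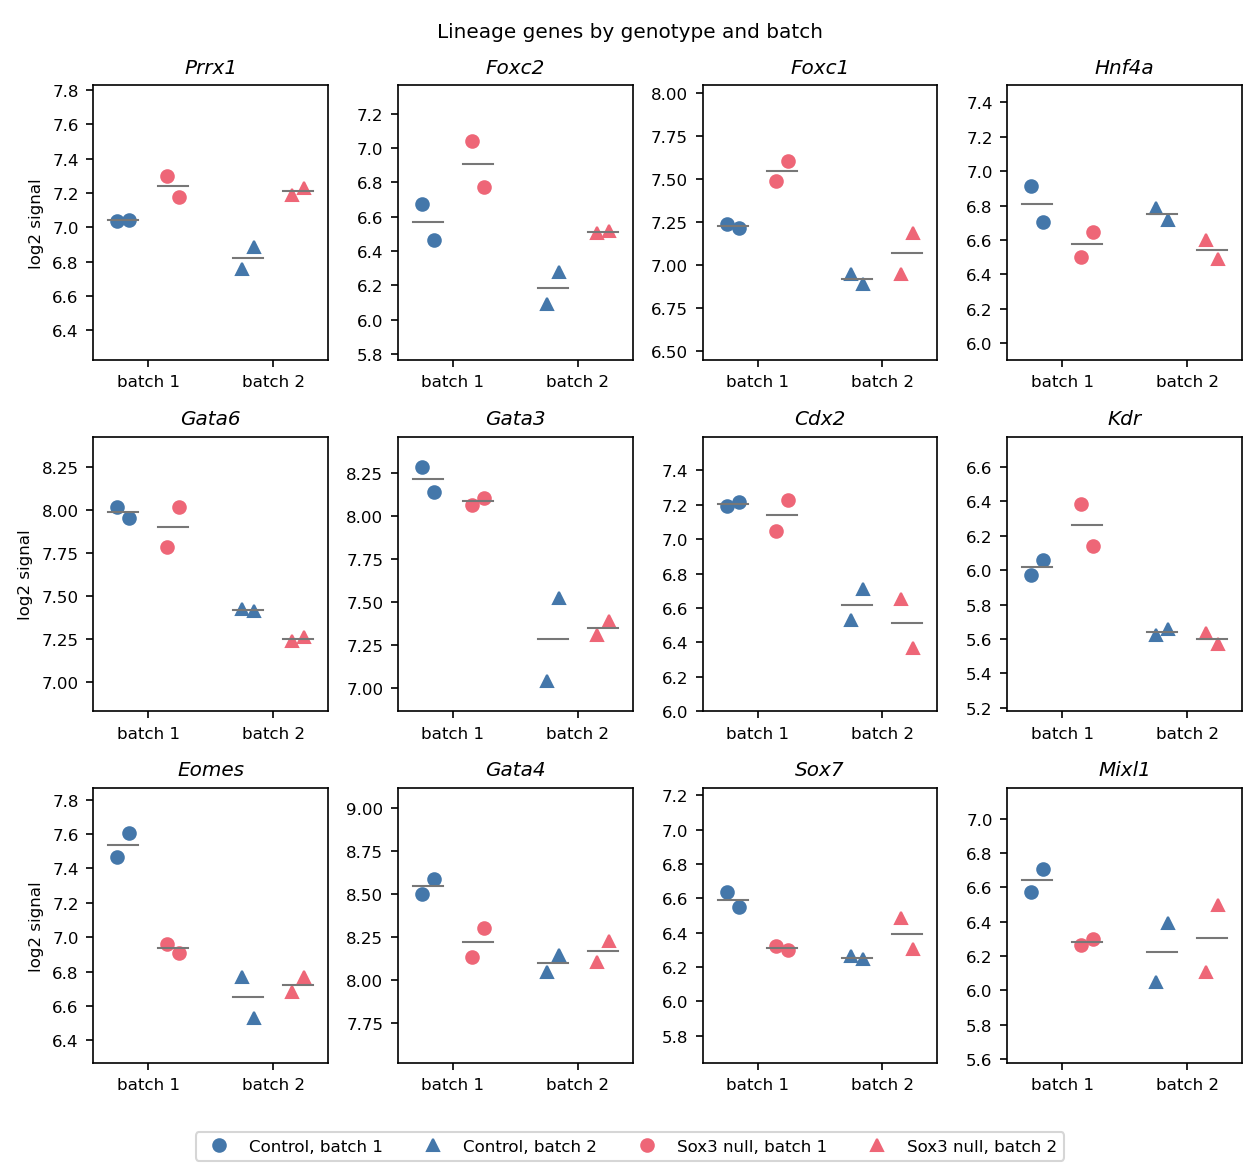
Log2 signal of 12 lineage genes on each of the 8 arrays (vertical axes, each spanning at least 1.6), with control in blue and *Sox3* null in red, split by batch, and the mean of each pair as a bar. *Prrx1* is higher in *Sox3* null cells in both batches, *Gata3*, *Gata6* and *Cdx2* are lower in batch 2 in both genotypes, and the 2 control arrays of batch 1 stand apart for *Eomes*.

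Whether the effect of *Sox3* loss differed between batches was tested with a genotype by batch term. After adjustment 0 of 34 genes passed, as did 0% of all rows, and 4 of 34 had an unadjusted p of 0.05 or less, beside 3.05% of all rows. The 4 were *Eomes* (unadjusted p = 5.67e-04), *Sox7* (0.00476), *Gata4* (0.0101) and *Mixl1* (0.0490), each with an adjusted p of 0.9997. In batch 1 the null pair was the lower for all 4. The log2 fold change of *Eomes* was -0.60 in batch 1 and 0.07 in batch 2. *Gata4* had -0.33 and 0.07, and *Mixl1* had -0.36 and 0.08. *Mixl1* log2 signals were 6.57, 6.71, 6.26 and 6.30 in batch 1, control then *Sox3* null, and 6.05, 6.40, 6.11 and 6.50 in batch 2. *Sox7* had 6.64, 6.55, 6.32 and 6.30 in batch 1 and 6.26, 6.25, 6.49 and 6.30 in batch 2, and its null arrays, below the controls in batch 1, were above them in batch 2.

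Another 74 genes of the same lineages, 72 of them measured, were read from the same fit. Of these, 4 passed for genotype by 1.4-fold or more, 3 higher and 1 lower in *Sox3* null cells, beside 0.431% of all rows in either direction. At any fold 6 passed, beside 1.55% of all rows, and 66 did not. The 74 genes were chosen with earlier results of these data known. Neither these counts nor those for batch below are thus a test against the share of all rows. *Wnt8a*, a Wnt ligand of the primitive streak, had log2 signals of 9.14, 9.20, 9.89 and 9.84 in control replicates 1 to 4 and 7.90, 8.19, 9.10 and 9.26 in *Sox3* null replicates 1 to 4, and fell by 0.90 on the log2 scale (SE 0.10, adjusted p = 0.00112). It was lower in *Sox3* null cells in each batch and was also the single gene of the 72 that was higher in batch 2 by 1.4-fold or more, with a log2 fold change of 0.92. *Dab2*, an endocytic adaptor of primitive and visceral endoderm, had 9.85, 9.996, 9.62 and 9.69 in control and 10.60, 10.50, 10.24 and 10.18 in *Sox3* null cells and rose by 0.59 (SE 0.05, adjusted p = 6.09e-04), with all null arrays above all control arrays. A dimmer row of *Dab2* had a log2 fold change of -0.05, and the mean of the 2 rows 0.27. Of 22 alternatives, 4 ended the call of each gene. For *Wnt8a* these were the plain linear model (adjusted p = 0.117), no batch term (0.560), a random batch block (0.122) and batch 2 alone (0.0605), and for *Dab2* the mean of its rows, no batch term (0.120), batch 1 alone (0.0623) and batch 2 alone (0.0829).

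*Pcdh8*, a protocadherin of paraxial mesoderm and brain, had log2 signals of 9.77, 9.85, 9.24 and 9.25 in control cells and 10.19, 10.11, 9.996 and 10.15 in *Sox3* null cells and rose by 0.58 (SE 0.09, adjusted p = 0.0101). Of 22 alternatives, 5 ended the *Pcdh8* call: all rows tested (adjusted p = 0.0944), the plain linear model (0.203), no batch term (0.269), a random batch block (0.0580) and batch 1 alone (0.189), where its log2 fold change was 0.34, compared with 0.83 in batch 2. *Flt1*, which encodes another VEGF receptor, had 7.89, 7.90, 7.27 and 7.17 in control and 8.45, 8.59, 7.45 and 7.69 in *Sox3* null cells and rose by 0.49 (SE 0.08, adjusted p = 0.0100). The null pair was higher in each batch for both genes. *Flt1* dropped under 1.4-fold without control replicate 1, control replicate 2, *Sox3* null replicate 2 or *Sox3* null replicate 4, at 0.43 to 0.47, and 11 of 22 alternatives in all ended its call, with an adjusted p of up to 0.805 with no batch term. Below 1.4-fold, *Cxcr4*, a chemokine receptor of definitive endoderm and brain, rose by 0.41 (adjusted p = 0.0154) and the claudin gene *Cldn6* fell by 0.42 (adjusted p = 0.0149). Leaving out control replicate 3 put the adjusted p of *Cxcr4* above 0.05 (0.0539), as leaving out any of the 4 arrays of batch 1 did for *Cldn6* (0.0507 to 0.0663). The next smallest p-values belonged to *Mef2c*, *Foxh1*, *Fgf5* and *Wt1*, with log2 fold changes of 0.27, -0.29, -0.34 and -0.24, none of which passed. The median of the 72 was -0.04, and 48 were below 0.

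For batch, 9 of the 72 were lower and 1 higher in batch 2 by 1.4-fold or more, beside 1.47% and 1.03% of all rows. The simple epithelial keratin genes *Krt8*, *Krt18* and *Krt19* fell by 1.03, 0.90 and 0.95 on the log2 scale from batch 1 to batch 2. *Krt8* had log2 signals of 11.40, 11.45, 10.96 and 11.06 in batch 1, control then *Sox3* null, and 10.11, 10.36, 10.28 and 9.99 in batch 2, with no overlap. *Foxf1*, a forkhead factor of splanchnic mesoderm, fell by 1.11 and its second row fell by 1.397. *Cldn6* fell by 0.98 and *Flt1* by 0.81.

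**Figure D4:**
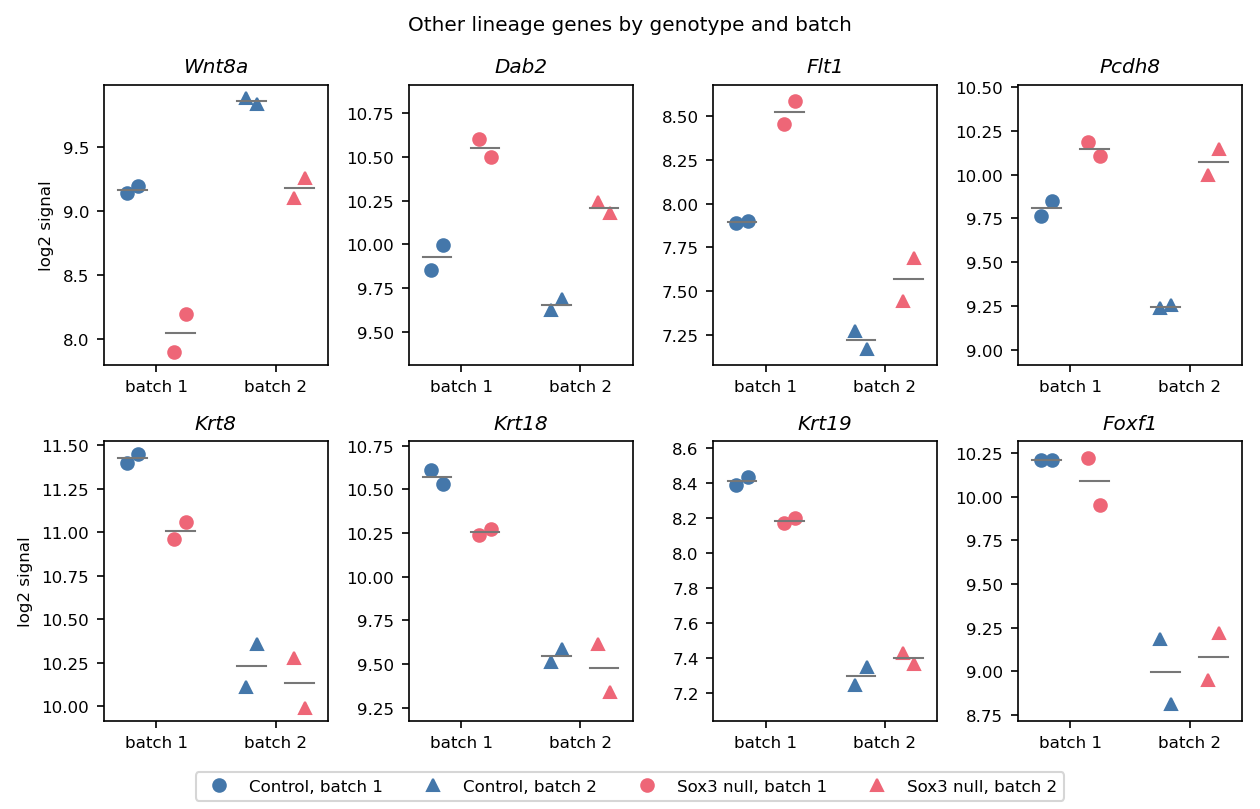
Log2 signal of 8 other lineage genes on each of the 8 arrays (vertical axes, each spanning at least 1.6), with control in blue and *Sox3* null in red, split by batch, and the mean of each pair as a bar. The upper row holds the 4 genes that passed for genotype with 1.4-fold or more, and the lower row 4 that were lower in batch 2, for which the batch means of both genotypes are apart with no overlap of arrays.

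Markers of 3 cell types that the cultures could hold were read beside these genes. *Tdgf1* is counted both among the other lineage genes and among the markers of undifferentiated ES cells. The mean log2 signal of 10 neural progenitor markers was 11.18 on both control arrays and 11.39 and 11.41 on the null arrays of batch 1, and 10.94 and 10.99 against 11.22 and 11.27 in batch 2. At any fold *Nes*, *Pax3*, *Zic1* and *Sox9* rose in *Sox3* null cells and 6 did not pass. Over all rows 1.55% passed for genotype at any fold in either direction, and 1.15% were higher in *Sox3* null cells. The marker lists too were chosen with earlier results of these data known. With the replicate block *Pax3* did not pass (adjusted p = 0.0538). For 10 markers of undifferentiated ES cells the mean was 9.64 and 9.65 on control arrays and 9.48 and 9.42 on null arrays of batch 1, and 9.54 and 9.46 against 9.45 and 9.41 in batch 2. *Nanog* fell by 0.37 (adjusted p = 0.0464, or 0.0718 with the replicate block) and 9 did not pass. For batch, 5 of the 10 neural markers and 4 of the 10 ES cell markers were lower in batch 2 at any fold, and 1 and 2 were higher, beside 9.35% and 10.9% of all rows. All 20 lay above the array median, where 31.9% of rows passed in either direction. For 12 markers of embryonic fibroblasts the mean ran from 6.63 to 6.73 over the 4 arrays of batch 1 and from 6.52 to 6.57 over those of batch 2, where 3 were lower and none higher. *Twist1*, which mesoderm and neural crest also express, rose by 0.49 in *Sox3* null cells (adjusted p = 0.00929), *Thy1* fell by 0.51 (adjusted p = 0.00525) and 10 did not pass. The fibroblast genes *Postn*, *Lum* and *Fap* were below the lower quartile on all 8 arrays, while the collagen genes *Col1a1* and *Col1a2* were above the median on all 8. *Col1a2* had a log2 fold change of -0.30 for genotype (adjusted p = 0.153) and -0.50 for batch (adjusted p = 0.00300). The share of these cell types in the values of the lineage genes was not tested.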

How the data were processed

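Total RNA of 8 cultures, 4 *Sox3* null and 4 control, was hybridised to 8 arrays. The deposited values are log2 signals of 35556 transcript clusters, already normalized and summarised by the authors. The submitters' processing notes name Partek. How they were normalized and summarised, and on which genome build, is not given in the sources read, and the number of arrays limits the precision.

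Gene names came from the platform annotation, with 21789 rows of 1 symbol, 1621 of several and 12146 unnamed. The 23410 named rows entered a limma fit (version 3.58.1, R 4.3.3) with genotype and batch as factors and moderated variances, with Benjamini-Hochberg adjustment over all of them. A call needed an adjusted p at or under 0.05 and at least 1.4-fold. The methods name a 2-way ANOVA with batch as a factor. The brightest row stood for a gene with several rows. Signal was set against the lower quartile of each array over all rows. The fit was tested on simulated data of the same layout.

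Samples with the same replicate number deviated together from their genotype means (r from 0.392 to 0.678 across genes), and in the labels they share a batch. After batch the correlation was -0.324 for numbers 1 and 2 and 0.305 for 3 and 4. The numbers of a batch share a single value, since the 2 arrays of a genotype in a batch deviate equally from their mean in opposite directions. Batch is the block of the fit, and the replicate number was an alternative.

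The lineage genes, the other lineage genes and the marker lists were chosen with earlier results of these data known. By the rule for named genes every lineage gene is named. Array values are given for those with an unadjusted p of 0.05 or less for genotype (up to 10) or interaction (up to 4). They are also given for those called for batch (up to 10). As defining genes *Eomes*, *Gata4*, *Gata6*, *Sox17*, *Foxa2*, *Kdr*, *Pdgfra*, *Cdx2* and *Afp* have them too. Of the other lineage genes, those that passed for genotype, the next 4 and 6 called for batch are named. The text gives array values for *Wnt8a*, *Dab2*, *Pcdh8*, *Flt1* and *Krt8* among these, and log2 fold changes alone for the rest. As alternatives, all rows were tested, dim rows were left out, and the fit was repeated with other variance estimates, a plain linear model, renormalized arrays, other treatments of batch and replicate number, averaging of rows, no fold threshold, each batch or genotype alone and leaving out each array.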

Additional observations from a re-analysis of the deposited data

Results flagged for a closer look

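In each genotype the array farthest from the others was tested for all 34 lineage genes by Dixon's ratio, the gap to the nearest array over the whole range, with a critical value of 0.829 for 4 arrays. Of 68 tests 3 passed, and chance passes about 1 in 20 when the 4 arrays come from a single population. The 4 arrays of a genotype came from 2 batches here, so that rate need not hold for genes that differ by batch. *Gsc* was high in control replicate 1 (log2 signal 7.54, ratio 0.919). *Mesp1* was high in *Sox3* null replicate 2 (6.25, ratio 0.921). *Sox7* was high in *Sox3* null replicate 3 (6.49, ratio 0.88). *Sox7* also moved in opposite directions in the 2 batches, with both null arrays below both controls in batch 1 and above them in batch 2. The difference of its log2 fold changes was 0.42, with an adjusted p of 0.9997 from limma for the genotype by batch term.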

How the results depend on the processing

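The count of lineage genes called for genotype was 0 under every alternative but that with no fold threshold (1), and the interaction count was 0 under all those run. The other lineage genes called for genotype, 4, were 2 with all rows tested, 1 with the plain linear model, 0 without a batch term, 1 with a random batch block, 1 in batch 1 alone and 1 in batch 2 alone, and 3 to 4 when single arrays were left out. The lineage genes called for batch, 5, were 2 when rows below the median were left out, which removes those genes from the test, 3 after quantile normalization and 11 with no fold threshold, and 4 to 5 when single arrays were left out. Of the lineage genes 8 were above the median of every array in place of 32 above the lower quartile. Over all rows, genotype calls were 101, and 62 with all rows tested, 22 with the plain linear model, 29 with no batch term, 58 with a random block, 18 in batch 1 and 23 in batch 2 alone. Batch calls were 584, and 982 with all rows tested. Between the batches the sign of the genotype difference differed for 15 of the 34 lineage genes, beside 38.5% of all rows. Of the genes with values given on every array, it turned against the joint fit in batch 2 alone for *Eomes* (0.0744), *Gata4* (0.070), *Sox7* (0.139), *Mixl1* (0.0825), *Gata3* (0.0681) and *Kdr* (-0.037) and in batch 1 alone for *Sox17* (0.0319). When single arrays were left out it turned for *Sox17* (-0.124 to 0.0353) and *Foxa2* (-0.114 to 0.0090). The genotype effects of *Gata3*, *Sox7* and *Mixl1* were not refitted with single arrays left out. The cause was not tested. With the replicate block 0 lineage genes and 4 other lineage genes were called, and 103 of all rows. Of these 97 were shared with the 101. At any fold the block ended the calls of *Prrx1*, *Pax3* and *Nanog*, added *Foxc2* and changed no other genotype call among the lineage genes, the other lineage genes and the markers. The batch results were not fitted with it, since each replicate number lies in 1 batch. The genotype by batch term was not fitted with it either, though the layout would allow that.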
